A study of Homo sapiens with 14 samples.

Results

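Keratins are the intermediate filament proteins of epithelial cells. They assemble as obligate pairs of an acidic type I chain and a basic type II chain, so the genes of a filament are usually transcribed in matched pairs. KRT8 (type II) and KRT18 (type I) form the filaments of simple epithelia, with KRT7 and KRT19 added in ducts and in most ovarian surface-type carcinomas, whereas KRT5 (type II) with KRT14 or KRT15 (type I) marks the basal layer of stratified epithelia. KRT23 is a type I keratin of glandular tissues, and KRT6A and KRT17 are induced in wounded and hyperproliferating epidermis.

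The simple and basal keratins were taken as a list of 10 gene symbols, looked up in the gene symbol column of the array's annotation. A row naming that gene and no other was found for 8 of the 10, among 18398 genes with such a row. KRT6A and KRT17 were not analysed here. KRT5, KRT7, KRT8, KRT14, KRT15, KRT19 and KRT23 had 1 such row each. KRT18 had 2, of which the row with the higher mean was used.

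The samples were cultures of OVCAR-3, an established human high-grade serous ovarian carcinoma line, measured on 14 Affymetrix whole-transcript arrays. Parental cells (n = 4 arrays) were grown in medium without inhibitor. The sublines OVCAR3-533533-R1, -R3, -R5, -R6 and -R7 were derived independently for resistance to PHA-533533, an inhibitor of the kinase CDK2, and each gave 1 array at passage 5 in 4 µM PHA-533533 (selected, n = 5) and 1 array at passage 10 or later in 0 µM (stable, n = 5). Inhibitor and passage changed together, so their shares in a difference between selected and stable cells cannot be told apart. Selected cells differed from parental cells both in derivation for resistance and in inhibitor, and these cannot be told apart either. The passage of the parental cells is not stated. Whether the 4 parental replicates came from separate cultures is not stated. Tests that use them therefore take in only the spread of these 4 arrays, and that spread may be technical.

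Values are log2 signal as deposited, between 4.34 and 14.92. The labels do not state the base, which was taken from this range. A difference of 1 is thus a doubling of signal, and the number of arrays limits its precision. Probes of different genes bind with different strength, so no keratin's level is set against another's. Of 10 markers fixed for the OVCAR-3 lineage, 9 lay above the 95th percentile of the 340 olfactory receptor genes of the same array, a rough mark of background, in all 14 arrays. These included PAX8, WT1, MUC16, EPCAM and CDH1. The leukocyte marker PTPRC, the endothelial markers PECAM1 and CDH5 and the fibroblast markers DCN and LUM lay below it in every array. Other markers of these lists did not. Of 9 fibroblast, 8 leukocyte and 6 endothelial markers measured, 3, 2 and 1 lay above it in at least 1 array. Among them the fibroblast marker COL1A1 and the endothelial marker CLDN5 were above it in 14 arrays and the leukocyte marker CD68 in 11. By the same mark KRT5, KRT7, KRT8, KRT14, KRT18, KRT19 and KRT23 were above background in 14 of 14 arrays. KRT15 was above it in 1 of 14, the selected array of R3, so its values lie close to background throughout.

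Most members lie in the 2 keratin clusters of the genome. In RefSeq (GRCh38.p14), KRT5, KRT6A, KRT7 and KRT8 are on chromosome 12 together with KRT18, which follows KRT8 directly although it is a type I gene. KRT14, KRT15, KRT17, KRT19 and KRT23 are on chromosome 17, with KRT15 and KRT19 next to each other among protein-coding genes. The promoter window of KRT5, the keratin with the largest called difference below, is shown from 250 bases before to 50 bases after the start of the gene, on the minus strand at chr12:52520345-52520644 of GRCh38.p14. Capitals mark the letters ATAAAA, an A/T-rich run whose first base lies at position -29, counted from the start. That motif was chosen after the sequence was read.

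KRT5 promoter: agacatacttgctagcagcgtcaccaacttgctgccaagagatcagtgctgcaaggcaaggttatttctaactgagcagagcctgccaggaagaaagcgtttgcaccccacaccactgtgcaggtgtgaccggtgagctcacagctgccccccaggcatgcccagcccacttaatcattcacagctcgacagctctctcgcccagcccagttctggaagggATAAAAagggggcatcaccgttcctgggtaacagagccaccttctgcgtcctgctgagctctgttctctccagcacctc

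On either strand ATAAAA occurs in 16% of the 35116 promoter windows of that length. The letters TATAAA (11.5% of windows), GGGCGG, the core of an Sp1 site (45%), TGANTCA of AP-1 (7.71%) and GCCNNNGGC of AP-2 (23.2%) were not present in the KRT5 window on either strand.

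Selected cells were set against parental cells to ask which keratins differ once resistant sublines grow in PHA-533533. KRT5 and KRT15 were higher in selected cells. KRT14, the other basal keratin measured, and the 5 simple-epithelium keratins did not pass the test, and basal and simple keratins were not tested against each other. Thus 2 of the 8 measured keratins were called, both higher, at an adjusted p under 0.05 (limma, Benjamini-Hochberg over 18398 genes). Over all genes 6.92% were called in either direction and 5.03% were called higher.

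KRT5 signal was 9.81, 11.10, 9.95 and 11.08 in parental replicates 1 to 4. In the selected arrays of R1, R3, R5, R6 and R7 it was 11.62, 11.51, 11.82, 11.51 and 12.27. Every selected array thus lay above every parental array, and R7 was highest. Here and below, such a parting of groups is a description, since the share of all genes that part this way is not given. The group means were 11.75 ± 0.32 (SD, n = 5) and 10.48 ± 0.70 (SD, n = 4), a difference of 1.26 (SE 0.27, adjusted p = 0.0196 by limma) or 2.40-fold with a 95% interval of 1.59 to 3.64. The call rested on single arrays: without parental replicate 1, parental replicate 3 or the selected array of R7 the difference was 1.04, 1.09 and 1.13 and did not pass (adjusted p = 0.0525, 0.0537 and 0.0570 by limma).

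KRT15 signal was 6.41, 6.63, 6.43 and 6.67 in the parental arrays and 7.07, 7.58, 6.63, 7.06 and 7.30 in the selected arrays of R1, R3, R5, R6 and R7. R3 was highest, and R5 alone fell within the parental range. The difference was 0.59 (SE 0.16, adjusted p = 0.0422 by limma), or 1.51-fold (95% interval 1.19 to 1.91). Centring each array on its median gave 0.62 and ended the call (adjusted p = 0.0624 by limma). The KRT15 call ended when any single array other than the selected array of R5 was left out, with differences of 0.48 to 0.64 and adjusted p between 0.0501 and 0.114 by limma.

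The mean of the 340 olfactory receptor genes was 6.42, 6.16, 6.71 and 6.40 in parental replicates 1 to 4 and 6.06, 6.26, 6.50, 6.60 and 6.32 in the selected arrays. With that mean as a covariate KRT5 differed by 1.18 (adjusted p = 0.0150 by limma) and KRT15 by 0.55 (adjusted p = 0.0334 by limma). The olfactory receptor means of the groups overlapped.

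Of the simple keratins, KRT8 was 12.92, 13.10, 13.12 and 13.05 in parental and 13.32, 13.04, 13.23, 13.24 and 13.33 in selected arrays. Its groups overlapped only through R3, and the difference of 0.18 (SE 0.08) did not pass (adjusted p = 0.221 by limma). KRT18, its partner, was 12.47, 12.52, 12.62 and 12.51 in parental and 12.81, 12.49, 12.68, 12.67 and 12.71 in selected arrays, with R3 again lowest. The difference of 0.14 (SE 0.08) did not pass either (adjusted p = 0.361 by limma). The other KRT18 row differed by 0.25 (SE 0.07, adjusted p = 0.0712 over all rows by limma). KRT8 and KRT18 have processed pseudogenes in the genome, and their part in these signals was not tested.

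KRT7, a ductal type II keratin used to identify ovarian carcinoma, kept within a narrow span. It was 12.83, 12.84, 12.72 and 12.72 in parental and 12.83, 12.78, 12.79, 12.87 and 13.02 in selected arrays, a difference of 0.08 (95% interval -0.08 to 0.24). KRT14, the usual type I partner of KRT5, was 8.78, 8.77, 8.92 and 8.82 in parental and 8.89, 8.84, 8.86, 8.83 and 8.97 in selected arrays. Its difference was 0.06 (95% interval -0.09 to 0.20, adjusted p = 0.735 by limma), so the interval of KRT14 lay wholly below that of KRT5, 0.66 to 1.86. KRT14 is close in sequence to KRT16 and KRT17, and how far its row takes up their RNA was not tested.

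KRT19, the smallest keratin and a type I partner of KRT7 and KRT8, was 10.80, 11.69, 11 and 11.66 in parental and 11.67, 10.82, 10.76, 11.75 and 12.03 in selected arrays. The groups covered nearly the same span, with a difference of 0.12 (SE 0.28, adjusted p = 0.881 by limma). KRT23 was 9.19, 9.62, 9.21 and 9.45 in parental arrays against 10.81, 9.26, 9.18, 9.70 and 10.04 in selected ones. Its difference was 0.43 (95% interval -0.17 to 1.03, adjusted p = 0.463 by limma), and R1 was the array farthest from the parental range. All 8 keratins had a difference above 0, with a median of 0.16, against 45.9% of all genes above 0 and a median of -0.01. Among other keratins measured, 6 of 12 of type I (median 0.00) and 1 of 14 of type II (median -0.06) were above 0. Of these lists, 2 and 7 genes lay above the background mark in any array.

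**Figure D1:**
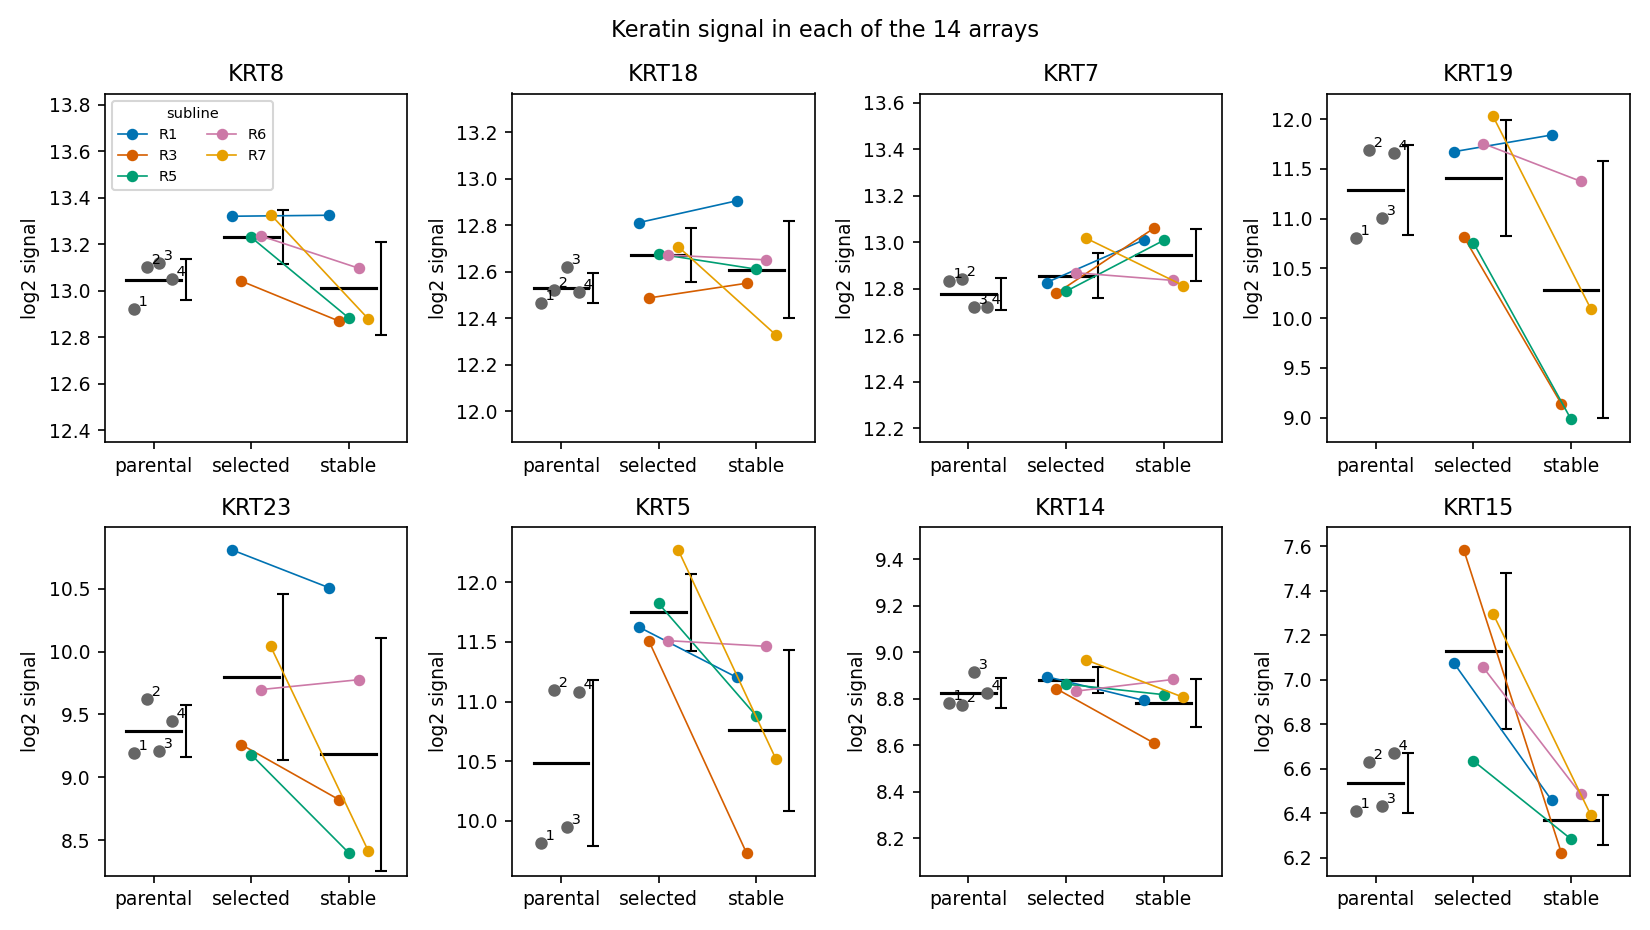
Log2 signal (vertical axis, each panel with its own range of at least 1.5) of 8 keratins in parental, selected and stable arrays. Grey points are parental arrays with their replicate number, coloured points are sublines joined across their selected and stable arrays, horizontal bars are group means and brackets are ± 1 SD. KRT5 lay at 11.51 to 12.27 in selected arrays, above all parental arrays, and KRT19 ran from 8.98 to 11.84 in stable arrays.

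The parental arrays themselves were at separate KRT5 levels, with replicates 2 and 4 above replicates 1 and 3 by a gap of 1.13 between the nearest arrays. The SD of KRT5 over the parental arrays, 0.70, was larger than that of 99.92% of genes, whose median was 0.13. This grouping of the replicates was taken from the KRT5 values themselves. The gap and SD of KRT5, and its place among all genes, are therefore descriptions and not tests. KRT19 parted in the same order with a gap of 0.66, KRT23 with 0.24 and KRT15 with 0.20. KRT7, KRT8, KRT14 and KRT18 did not part this way, and their parental values spanned 0.12, 0.20, 0.14 and 0.16. Over all 18398 genes replicates 2 and 4 lay above 1 and 3 by any gap in 4150 genes and below in 2618, so small gaps were common. They lay above by at least 0.5 in 54 genes and below by at least 0.5 in 6. KRT5 was among 8 genes in which they lay above by at least 1. The olfactory receptor mean was lower in replicates 2 and 4 (6.16 and 6.40) than in 1 and 3 (6.42 and 6.71), although replicates 1 and 4 differed little. Its part in these levels was not tested.

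**Figure D2:**
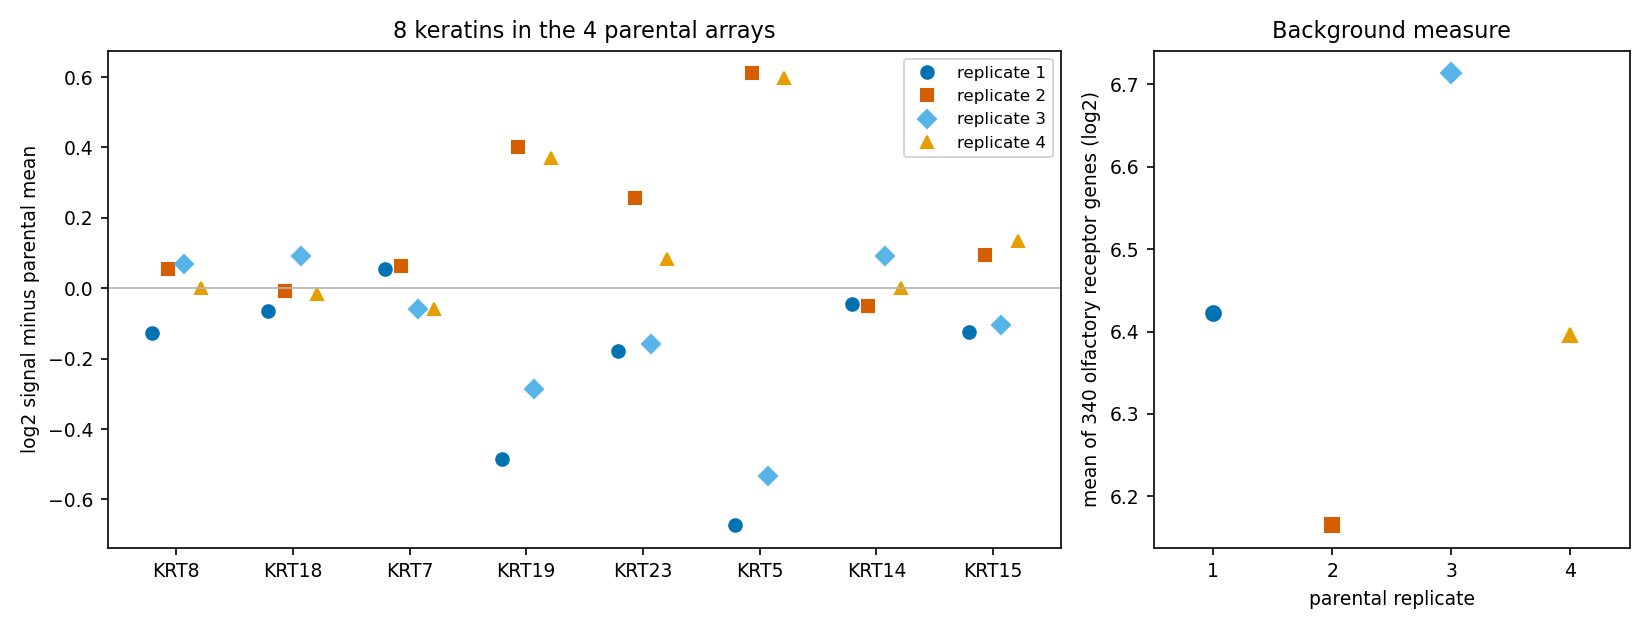
Left, log2 signal of each keratin in the 4 parental arrays minus its parental mean (vertical axis), with a symbol for each replicate. Right, the mean log2 signal of 340 olfactory receptor genes in the same arrays. KRT5, KRT19, KRT23 and KRT15 were higher in replicates 2 and 4 than in 1 and 3, with gaps of 1.13, 0.66, 0.24 and 0.20.

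Stable cells were compared with the same 4 parental arrays to ask what remained after growth without inhibitor. No keratin was called, by limma, and none of the 8 had an unadjusted p under 0.05. Over all genes 0.00544% were called. The KRT5 signal was 11.20, 9.73, 10.88, 11.46 and 10.52 in the stable arrays of R1, R3, R5, R6 and R7, which covered the whole parental range. The difference was 0.28 (95% interval -0.55 to 1.10, adjusted p = 0.999 by limma). KRT15, at 6.46, 6.22, 6.28, 6.49 and 6.39, differed by -0.17 (95% interval -0.36 to 0.02, adjusted p = 0.864 by limma).

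KRT19 showed the widest spread among stable cells. It was 11.84 in R1 and 11.37 in R6 but 10.10 in R7, 9.14 in R3 and 8.98 in R5, and the last 3 lay below every parental array. The mean difference from parental cells was -1.0 (95% interval -2.21 to 0.21), which did not pass (adjusted p = 0.898 by limma). KRT23 had the same sublines at its low end. Its signal was 10.51 in R1 and 9.78 in R6, above all parental arrays, and 8.82, 8.40 and 8.41 in R3, R5 and R7, below all of them. The mean difference of -0.19 (SE 0.39, adjusted p = 0.999 by limma) averages over these levels.

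KRT8 was likewise highest in R1 and R6, at 13.33 and 13.10, and lower in R3, R5 and R7, at 12.87, 12.88 and 12.88. Its mean differed from that of parental cells by -0.04 (95% interval -0.27 to 0.19). KRT18 was 12.91, 12.55, 12.61, 12.65 and 12.33, with R7 below the parental range and a difference of 0.08 (95% interval -0.15 to 0.31). KRT7 was 13.01, 13.06, 13.01, 12.84 and 12.81, so R1, R3 and R5 lay above all parental arrays, and its difference of 0.17 (95% interval -0.00 to 0.34) did not pass (adjusted p = 0.832 by limma). KRT14 was 8.79, 8.61, 8.82, 8.88 and 8.81, at -0.04 (95% interval -0.21 to 0.12).

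**Figure D3:**
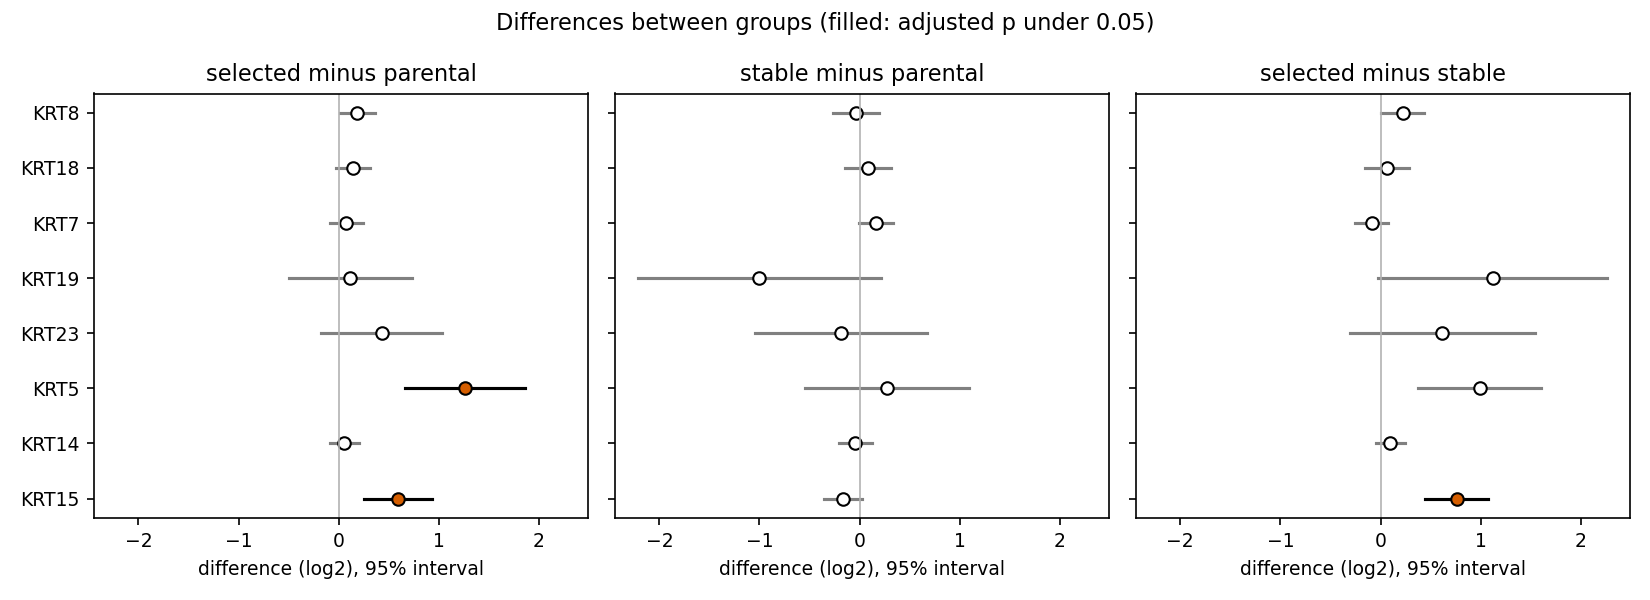
Difference in log2 signal (horizontal axis) between groups for 8 keratins, with 95% intervals from limma. Filled points had an adjusted p under 0.05. These were KRT5 (1.26) and KRT15 (0.59) for selected minus parental and KRT15 (0.76) for selected minus stable, and none for stable minus parental.

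Selected and stable cells were compared to ask how the same 5 sublines differ with and without the inhibitor. KRT15 was higher in selected cells, the only call among the 8 keratins, against 2.16% of all genes called in either direction and 1.54% called higher. Its selected arrays, at 6.63 to 7.58, lay above its stable arrays, at 6.22 to 6.49. The difference was 0.76 (SE 0.14, adjusted p = 0.0260 by limma), or 1.69-fold (95% interval 1.36 to 2.11), and within the sublines it was largest in R3 (1.36), followed by R7 (0.90), R1 (0.62), R6 (0.57) and R5 (0.35). The KRT15 call ended without the selected array of R3 (0.65, adjusted p = 0.0553 by limma) or of R7 (0.72, adjusted p = 0.0738 by limma), and without the stable array of R5, R6 or R7 (0.74, 0.79 and 0.77, adjusted p = 0.0681, 0.0510 and 0.0683 by limma). In 5 of 5 sublines the selected array had the lower olfactory receptor mean, with differences from -0.03 in R6 to -0.38 in R7. With subline as a block and that mean as a covariate KRT15 differed by 0.61 and did not pass (adjusted p = 0.664 by limma), a fit in which no gene of 18398 was called.

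KRT5 did not pass (adjusted p = 0.0985 by limma), although its selected arrays, from 11.51, lay just above its stable arrays, up to 11.46. The difference was 0.99 (SE 0.28, 95% interval 0.38 to 1.60). Within the sublines it was 1.78 in R3, 1.75 in R7, 0.94 in R5, 0.42 in R1 and 0.05 in R6, so R6 had nearly the same level in both arrays. Array weights, or a fit of all 14 arrays with subline as a random block, brought KRT5 past the threshold (0.89 and 0.99, adjusted p = 0.0376 and 0.0474 by limma). With the block and the olfactory receptor mean together the KRT5 difference was 0.33 (adjusted p = 0.839 by limma).

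KRT19 differed by 1.93 in R7, 1.77 in R5 and 1.68 in R3, but by 0.38 in R6 and -0.17 in R1. The mean of 1.12 had a 95% interval of -0.02 to 2.26 and did not pass (adjusted p = 0.340 by limma). KRT23 differed by 1.63 in R7, 0.78 in R5, 0.44 in R3, 0.30 in R1 and -0.08 in R6, with a mean of 0.61 (95% interval -0.31 to 1.54, adjusted p = 0.556 by limma). For both genes the selected and stable arrays of R1 and R6 lay closer together than those of R5 and R7.

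Among the other simple keratins KRT8 was 0.22 higher in selected arrays (SE 0.10, adjusted p = 0.317 by limma), at 0.45 in R7, 0.35 in R5, 0.17 in R3, 0.14 in R6 and -0.00 in R1. KRT18 differed by 0.06 (95% interval -0.16 to 0.28), KRT14 by 0.10 (95% interval -0.05 to 0.24) and KRT7 by -0.09 (95% interval -0.25 to 0.08). None of these passed. KRT7 was the single keratin with a mean below 0, and it was higher in selected cells in 2 of 5 sublines, R6 and R7. The median difference of the 8 keratins was 0.42, against 0.00 over all genes. It was -0.03 over 12 other keratins of type I and -0.04 over 14 of type II.

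**Figure D4:**
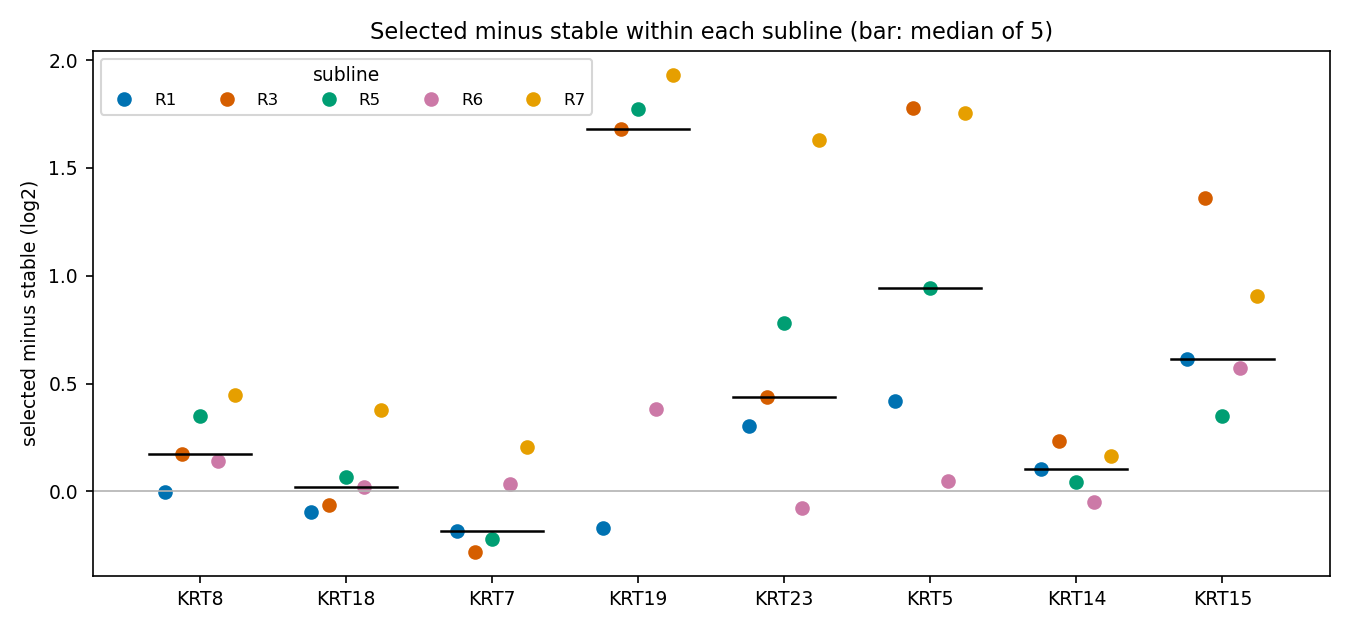
Selected minus stable log2 signal (vertical axis) of each keratin within each of 5 sublines, with bars at the median. KRT5 and KRT15 were above 0 in 5 of 5 sublines, and R3, R5 and R7 had KRT19 differences of 1.68 to 1.93 while R1 had -0.17.

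Sublines were also compared with each other over their 10 arrays, with growth condition as a covariate. No keratin was called by this F test in limma, against 0.12% of all genes. KRT23 and KRT19 had the smallest unadjusted p, 0.00183 and 0.00655 (adjusted p = 0.126 and 0.168 by limma). The mean KRT23 signal was 10.66 in R1, 9.74 in R6, 9.23 in R7, 9.04 in R3 and 8.79 in R5. For KRT19 the order was R1 (11.76), R6 (11.56), R7 (11.06), R3 (9.98) and R5 (9.87). R1 and R6 were thus at the upper end and R3 and R5 at the lower end for both genes. The KRT7 means lay within 0.07 of each other (adjusted p = 0.997 by limma).

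Across the 14 arrays the keratins other than KRT7 varied in the same direction. These correlations are descriptions only, since both arrays of a subline share their origin and all arrays share differences in background. Of 28 pairs 25 had a Pearson r above 0, including all 21 pairs without KRT7, and 15 had an r above 0.5, a level that 3.79% (KRT14) to 17.9% (KRT23) of all genes reached with a given keratin. The filament partners KRT8 and KRT18 had an r of 0.81 (Spearman 0.83). KRT8 was closest to KRT23 (0.86), ahead of KRT18 and KRT19 (0.80). KRT5 had an r of 0.62 with KRT14 and 0.69 with KRT15, its type I partners, and 0.72 with KRT8. Over the 10 arrays of the sublines alone these were 0.92, 0.69 and 0.79. Across the 14 arrays KRT7 had an r of -0.30 with KRT19 and 0.00 with KRT8.

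**Figure D5:**
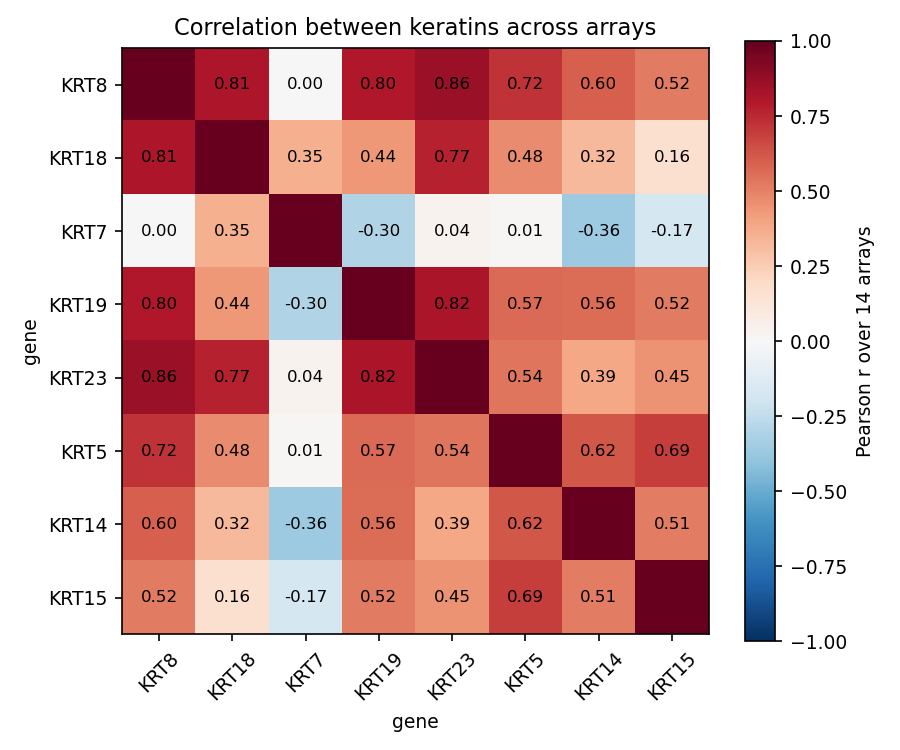
Pearson r across 14 arrays for each pair of 8 keratins, coloured from -1 (blue) to 1 (red). KRT8, KRT19 and KRT23 had r between 0.80 and 0.86 with each other, and KRT7 had r between -0.36 and 0.35 with the other keratins.

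For each keratin the 3 genes most like it were the highest Pearson r over the 14 arrays among all 18398 genes. For KRT5 they were DHX8 (0.93), CGN (0.93) and ZNF584 (0.92). For KRT15 they were GSDMC (0.94), CLK3 (0.93) and PHF8 (0.93), for KRT19 TFPT (0.93), PRKX (0.93) and LOC613266 (0.92), and for KRT23 ISOC1 (0.97), TSPAN13 (0.94) and DAAM1 (0.93). For KRT8 they were ZDHHC13 (0.92), UPK1B (0.91) and SCD5 (0.90), for KRT18 GKAP1 (0.88), CEP57L1 (0.87) and GLRB (0.87), for KRT7 FAM3C (0.91), GCC2 (0.90) and C1orf116 (0.89), and for KRT14 PCDH10 (0.87), FLVCR2 (0.86) and MMP12 (0.85). No keratin was among the 3 genes most like another.

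None of 12 other type I and 14 other type II keratins measured was called in the comparisons of selected, stable and parental cells. Further keratins were not looked at. Of those measured, KRT16, KRT4 and KRT80 lay above the background mark in all 14 arrays. At an unadjusted p under 0.05 in limma there was 1 in selected against parental, 1 in stable against parental and 2 in selected against stable cells. The share of all genes at that level is not given here, so these counts are not read further. KRT80 was named after its values were seen. KRT4, a keratin of mucosal stratified epithelia, was 9.64, 10.55, 9.72 and 10.41 in the parental arrays and so parted in the same order as KRT5. It was 9.82, 8.77, 8.91, 9.44 and 10.10 in the selected and 8.77, 8.28, 8.40, 9.0 and 8.63 in the stable arrays of R1, R3, R5, R6 and R7. Every stable array lay below every parental one, with a difference of -1.46 (SE 0.21) that did not pass (adjusted p = 0.0738 by limma). KRT4 thus did not follow KRT5 above the parental level in selected cells, where it differed by -0.67 (adjusted p = 0.195 by limma). Against stable cells, however, KRT4 was higher in the selected array of every subline, as KRT5 was. That difference was 0.79 and did not pass (adjusted p = 0.125 by limma). KRT16, a type I partner of KRT6A, differed by 0.15 in selected cells (adjusted p = 0.369 by limma).

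Filaments are anchored at desmosomes and hemidesmosomes. Of 23 measured genes of keratin linkers and junctions 4 were higher in selected than in parental cells and 0 lower, where 5.03% of all genes were called higher, with a median of 0.08 over the list against -0.01 over all genes. These were the desmosomal cadherins DSG2 at 0.63 (SE 0.12) and DSC2 at 0.51 (SE 0.12), the desmosomal plaque protein PKP2 at 0.26 (SE 0.07) and ITGA6, the alpha chain of the hemidesmosome integrin, at 0.50 (SE 0.10), with adjusted p between 0.00948 and 0.0471 by limma. Selected arrays did not overlap parental ones for DSG2 (10.21 to 10.65 against 9.57 to 10.02) or ITGA6 (9.40 to 9.73 against 8.87 to 9.23). The same held for PKP2 (10.12 to 10.27 against 9.84 to 10.02), whereas DSC2 overlapped. The share of all genes without overlap is not given here. No member of this list was called in stable against parental or in selected against stable cells.

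Of 17 measured epithelial transcription factors 2 were higher in selected than in parental cells and 0 lower, against 5.03% of all genes called higher. The list had a median of 0.13. TFAP2C, an AP-2 factor of epithelial progenitors, was 7.38, 7.51, 7.16 and 7.31 in parental and 8.44, 8.16, 7.84, 7.81 and 8.09 in selected arrays, a difference of 0.73 (SE 0.13, adjusted p = 0.00689 by limma). In stable arrays it was 7.16 to 7.44, and it was the only call of the list in selected against stable cells (adjusted p = 0.0116 by limma), where 2.16% of all genes were called. TFAP2C lay above the background mark in 5 of 14 arrays and in none of the stable ones, so the size of these differences is uncertain. ELF3, an epithelial ETS factor, was 0.63 higher in selected than in parental cells (SE 0.14, adjusted p = 0.0196 by limma). Of 18 genes of stratified differentiation 1 was called in selected against parental cells, a share close to the 6.92% of all genes, and it was lower, the secreted epidermal protein DMKN at -0.41 (SE 0.08, adjusted p = 0.00896 by limma).

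Of 16 genes of other intermediate filaments 1 was called, SYNC, a muscle filament-linking protein, at 0.43 in selected against stable cells (adjusted p = 0.0480 by limma), where 2.16% of all genes were called. SYNC was above the background mark in 8 of 14 arrays. Of the 10 lineage markers the transcription factor MECOM was called in the same comparison, at 0.49 (adjusted p = 0.0337 by limma). In selected against parental cells 0 of the 10 were called by limma and 6 had an unadjusted p under 0.05. That last count was 1 in stable against parental and 3 in selected against stable cells, and the share of all genes is not given here. Of the 6, MUC16 alone was lower, at -0.88 (adjusted p = 0.0591 by limma). EPCAM was 0.25 higher (adjusted p = 0.0627 by limma). Over the list 8 of 10 differences were above 0, with a median of 0.23, against 45.9% of all genes and a median of -0.01. None of the 9 fibroblast, 8 leukocyte, 6 endothelial or 4 mesothelial markers was called in any of the 3 comparisons by limma. At an unadjusted p under 0.05 in limma there were 1 fibroblast and 1 mesothelial marker in selected against parental cells. There was 1 fibroblast marker in stable against parental cells and 0 in selected against stable cells. For these counts too the share of all genes is not given. For the fibroblast list the array means ran from 6.57 to 6.85 in the parental group, from 6.55 to 6.73 in the selected group and from 6.55 to 6.79 in the stable group. The mesothelial list, in which MSLN alone was above background in every array, ran from 7.86 to 7.99, from 7.65 to 7.85 and from 7.63 to 8.07 in the same order. Their part in the keratin differences was not tested.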

How the data were processed

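RNA of 14 samples was labelled with biotin for Affymetrix whole-transcript arrays, per the labels' protocols. The authors deposited 1 log2 signal per row and array, while their background correction, summarisation and normalization steps are not stated. Of 32295 rows, 19148 name 1 gene, 1376 several genes and 11771 none in the annotation used. RefSeq (GRCh38.p14) gave the current symbol, by gene ID, for 19118 rows, and the row with the highest mean stood for each gene. Array medians lay between 7.54 and 7.68.

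Groups were compared with limma 3.58.1 in R 4.3.3 (lmFit, eBayes, two-sided), each pair of groups on its own arrays, with Benjamini-Hochberg adjustment over 18398 genes and a threshold of 0.05. Sublines were compared by an F test with growth condition as a covariate. Each fit was tested on simulated data drawn for 18398 genes. Of 50 genes changed by 1 log2, the selected against parental fit recovered 92%, stable against parental 90%, selected against stable 92% and the subline F test 50%. Of 50 genes changed by 0.5 log2 they recovered 48%, 50%, 60% and 2% in the same order, so smaller differences could often be missed. Simulated arrays were drawn independently, without the pairing of sublines or a shared background.

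Members and gene lists were chosen with earlier results of these data known. Genes outside the keratin list were named by fixed rules: up to 4 called genes of a list by smallest p, or else up to 2, and the 3 highest correlations per keratin. Of the names these rules allow, some are not printed. Selected and stable arrays of the same subline are paired by the labels, and their deviations from the group means correlated at 0.636 (R1), 0.0497 (R3), 0.371 (R5), 0.546 (R6) and -0.468 (R7) across genes. Alternatives covered variance model, array weights, normalization, centring, dim genes, rows of a gene, arrays in the fit, the olfactory receptor mean, subline blocks and single arrays. Figures were drawn with matplotlib 3.10.9.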

Additional observations from a re-analysis of the deposited data

How the results depend on the processing

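No keratin was called in stable against parental cells, or between sublines, under any alternative tried. In selected against parental cells 2 keratins were called, which became 1 with median centring, with the filter on dim genes (which leaves out KRT15) or when calls also needed 1 log2 of change, and 0 to 2 when single arrays were left out. In selected against stable cells 1 keratin was called, which became 2 with array weights or with all 14 arrays and subline as a random block. It became 0 with median centring, the dim filter, a log2 difference of at least 1, both arrays of R7 left out, or the replicate block with the olfactory receptor mean, and was 0 to 1 with single arrays left out. The replicate block alone changed no keratin call (KRT15 0.76, adjusted p = 0.0220; KRT5 0.99, adjusted p = 0.0515, limma). It called 906 genes in all against 397 without it. KRT5 in selected against parental cells kept its direction in 20 of 20 alternatives and its call in 17, from 1.04 to 1.47 (adjusted p 0.00831 to 0.0570, limma).

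Directions turned for differences that were not called, and the cause was not tested. With single arrays left out KRT19 in selected against parental cells ran from -0.045 to 0.28, KRT14 in stable against parental cells from -0.068 to 0.00073, KRT23 there from -0.52 to 0.011, and KRT18 in selected against stable cells from -0.0085 to 0.14. Array weights gave KRT14 0.0090 in stable against parental cells. In selected against stable cells KRT18 was -0.0084 with the olfactory receptor mean, -0.018 without R7 and -0.13 with the replicate block and that mean, where KRT23 was -0.10. Over all genes the calls in selected against parental cells went from 1273 to 800 with median centring and to 2318 with the olfactory receptor mean, which took the share of higher calls from 72.7% to 63.8%. The calls in selected against stable cells went from 397 to 81 and 1480 with median centring and array weights. Subline calls went from 22 to 584 with trended robust variance. The 4 or 5 arrays of a group and the nearness of KRT15 to background limit these values.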
